A study of Arabidopsis thaliana with 6 samples.

Results

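The glutamate receptor-like (GLR) genes of Arabidopsis thaliana were compared between rosette leaves of line A6 and of wild type. A gene was taken where its symbol in the array's annotation began with GLR and a digit and its probe set (the short probes that are read together as one transcript's signal) was paired with that gene alone. This gave 7 genes of the 20 known in the family: GLR1.4, GLR2.7, GLR2.8, GLR2.9, GLR3.3, GLR3.5 and GLR3.6, each with 1 probe set. They stand among 13356 genes with a probe set of their own, and the other 13 GLR genes did not meet the rule.

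Line A6 was measured on 3 Affymetrix ATH1 arrays and wild type on 3, each array with RNA of its own biological replicate. All plants were 3 weeks old and had grown at 20 °C in a cycle of 20 h light and 4 h dark, and rosette leaves 3 to 6 were harvested. The series title calls the mutant deficient in N6-adenosine methylation. From published work, A6 lacks the native MTA gene, which encodes the enzyme that methylates mRNA, and carries MTA under the ABI3 promoter, so that the enzyme is made in embryos. It is the only mutant line, so effects of low methylation and other effects of this line cannot be told apart. Leaf RNA is a mixture of cell types, so fewer cells of a type and less RNA per cell cannot be told apart either.

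GLR proteins are the plant relatives of the ionotropic glutamate receptors of animal synapses. They form cation channels in membranes that amino acids can open, and calcium entering through them acts as a signal. The family falls into 3 clades, shown by the first digit of the name. Clade 3 is best known for the electrical and calcium waves that spread from wounded leaves and for guard cells, and GLR2.7, GLR2.8 and GLR2.9 are known from the calcium influx of pattern-triggered immunity.

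Of the 7 genes, 3 rose in A6, 2 fell and 2 did not pass the test. The rises were in clades 1 and 2: GLR1.4 was 4.29-fold higher, GLR2.7 was 2.43-fold higher and GLR2.8 was 1.94-fold higher. The falls were in clade 3 and smaller: GLR3.5 was 1.48-fold lower and GLR3.3 was 1.41-fold lower. A gene passed where its adjusted p from limma, corrected over all 22746 probe sets, was under 0.05. Across all probe sets 9.77% passed, with 5.03% higher and 4.74% lower in A6, and of the 13356 genes 8.65% passed. The share of probe sets that passed was 3.37% to 15.3% with 1 array left out. The median absolute log2 difference was 0.57 for the 7 genes and 0.15 for all probe sets, while the signed medians were 0.45 and -0.02. The values given are on a log2 scale with each probe set's median at 0. They can be compared between arrays but not between genes. Each log2 difference is the A6 mean minus the wild-type mean, and SE is its standard error. Nothing in the labels says how the plants of a replicate were pooled.

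**Figure D1:**
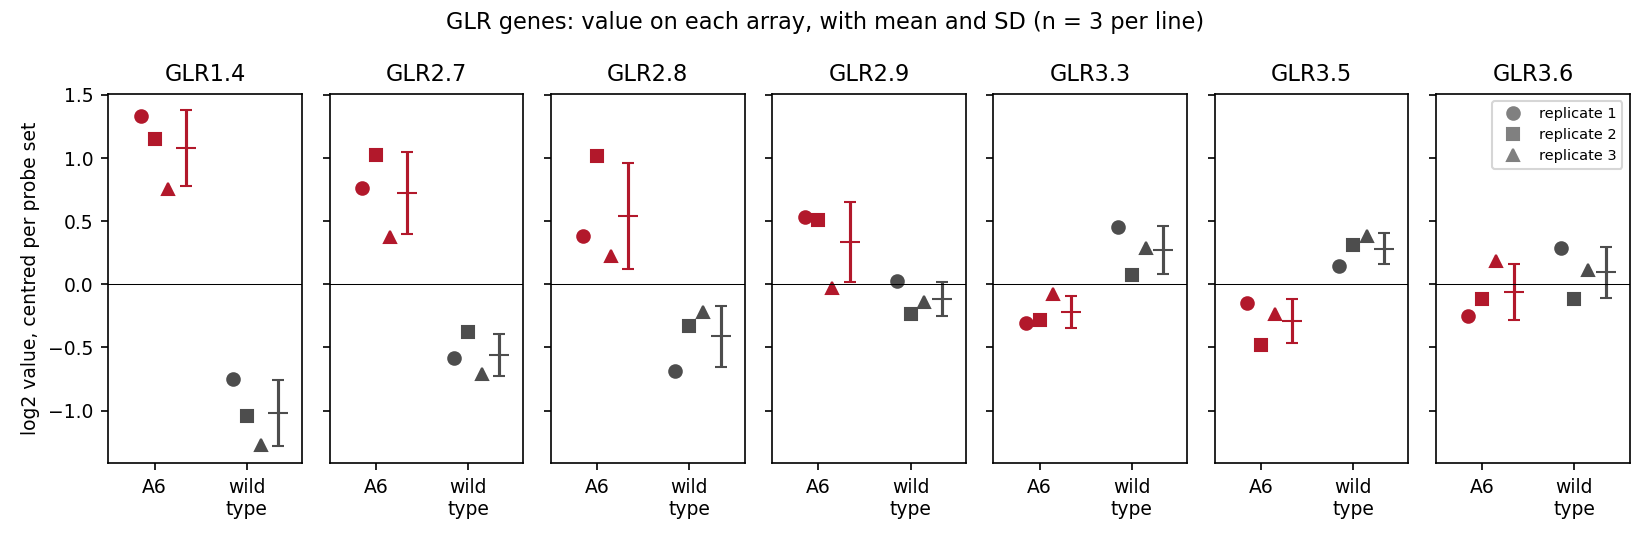
Centred log2 value of each of the 7 GLR genes (panels) on every array, A6 in red and wild type in grey, with replicates by symbol and the mean with SD (n = 3) beside the points. The 3 A6 values lie above all wild-type values for GLR1.4, GLR2.7 and GLR2.8, below them for GLR3.3 and GLR3.5, and overlap them for GLR2.9 and GLR3.6.

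GLR1.4 (AT3G07520) is the 1 gene of clade 1 that met the symbol rule. Its protein was shown in frog oocytes to be a cation channel opened by methionine. Its values were 1.34, 1.15 and 0.75 in A6 replicates 1 to 3, against -0.75, -1.04 and -1.27 in wild-type replicates 1 to 3. All A6 values lay above all wild-type values, and the gap between the nearest arrays of the lines was wider than the range within either line. The means were 1.08 ± 0.30 in A6 and -1.02 ± 0.26 in wild type (SD, n = 3 each), a log2 difference of 2.101 (SE 0.18, adjusted p = 0.000993, 95% interval 1.68 to 2.53). By absolute difference the probe set ranked 118 of 22746. GLR1.4 kept its call without any 1 array, with log2 differences of 1.97 to 2.27 and adjusted p-values up to 0.00796.

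GLR2.7 (AT2G29120), GLR2.8 (AT2G29110) and GLR2.9 (AT2G29100) lie next to each other in the genome with no other protein-coding gene between them. GLR2.7 had values of 0.76, 1.02 and 0.38 in A6 replicates 1 to 3, against -0.59, -0.38 and -0.71 in wild-type replicates 1 to 3. The lines did not overlap, and A6 replicate 3 was the A6 array nearest to wild type. The means were 0.72 ± 0.32 in A6 and -0.56 ± 0.17 in wild type (SD, n = 3 each), a log2 difference of 1.28 (SE 0.17, adjusted p = 0.00466, 95% interval 0.88 to 1.68). The call held without any 1 array (adjusted p 0.00347 to 0.0298).

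GLR2.8 had values of 0.39, 1.02 and 0.22 in A6 replicates 1 to 3, against -0.68, -0.33 and -0.22 in wild-type replicates 1 to 3. The lines lay apart, with A6 replicate 2 well above the other A6 arrays. The means were 0.54 ± 0.42 in A6 and -0.41 ± 0.24 in wild type (SD, n = 3 each). The log2 difference was 0.95 (SE 0.22, adjusted p = 0.0318, 95% interval 0.45 to 1.45). Leaving out 1 array ended the call of GLR2.8 in 4 of 6 cases. Its log2 difference was then 1.03 without A6 replicate 1 (adjusted p = 0.0852), 0.72 without A6 replicate 2 (adjusted p = 0.0638), 0.99 without the wild-type array of replicate 2 (adjusted p = 0.0877) and 1.05 without that of replicate 3 (adjusted p = 0.0588).

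GLR2.9 had values of 0.53, 0.51 and -0.03 in A6 replicates 1 to 3, against 0.03, -0.23 and -0.14 in wild-type replicates 1 to 3. A6 replicate 3 lay within the range of wild type. The log2 difference of 0.45 did not pass (SE 0.17, adjusted p = 0.135, 95% interval 0.07 to 0.83). Without A6 replicate 3 it was 0.63 (adjusted p = 0.0298). A6 replicate 3 was the lowest A6 array for GLR1.4 and for all 3 of these neighbouring genes.

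The log2 differences thus stood in the order GLR2.7, GLR2.8, GLR2.9 along the row of 3 genes, but the steps between neighbours were not resolved. The difference of GLR2.7 exceeded that of GLR2.8 by 0.33 (two-sided exact permutation test on the within-array difference, p = 0.2) and that of GLR2.8 exceeded that of GLR2.9 by 0.50 (exact p = 0.3). GLR2.7 against GLR2.9 gave 0.83 (exact p = 0.1). That is the smallest p that 3 against 3 arrays allow, so the test could not have resolved any step. The nearest measured genes outside the row had small differences. AT2G29150, beyond GLR2.7 with 3 genes between, differed by 0.06 log2 units (SE 0.10, adjusted p = 0.807). AT2G29070, beyond GLR2.9 with 2 genes between, had 0.21 (SE 0.12, adjusted p = 0.335), and was looked up after the values of the row were seen. The 3 genes are similar in sequence, and whether their probe sets take up each other's transcripts was not tested.

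The nearest measured genes beside GLR1.4 did not pass either. AT3G07510, directly beside it, had a log2 difference of 0.28 (adjusted p = 0.247), or 0.40 (adjusted p = 0.0489) without wild-type replicate 1. AT3G07530, on the other side with 2 genes between, had -0.54 (adjusted p = 0.112).

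The 3 measured genes of clade 3 all had lower means in A6. GLR3.3 (AT1G42540), needed for wound-induced electrical signals and expressed in phloem, had values of -0.30, -0.28 and -0.08 in A6 replicates 1 to 3, against 0.46, 0.08 and 0.29 in wild-type replicates 1 to 3. The lines lay apart, by the gap between A6 replicate 3 and wild-type replicate 2. The means were -0.22 ± 0.13 in A6 and 0.27 ± 0.19 in wild type (SD, n = 3 each), and the log2 difference was -0.50 (SE 0.13, adjusted p = 0.0492, 95% interval -0.79 to -0.20). The call was lost when any 1 of the 6 arrays was left out, at adjusted p 0.0531 to 0.177, while the log2 difference stayed between -0.59 and -0.40.

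GLR3.5 (AT2G32390), whose splice forms reach chloroplasts or mitochondria and which also acts in guard cells, had values of -0.15, -0.48 and -0.23 in A6 replicates 1 to 3, against 0.15, 0.31 and 0.38 in wild-type replicates 1 to 3. The lines lay apart, and A6 replicate 2 was the lowest array. The means were -0.29 ± 0.17 in A6 and 0.28 ± 0.12 in wild type (SD, n = 3 each), a log2 difference of -0.57 (SE 0.12, adjusted p = 0.027, 95% interval -0.85 to -0.28). It kept its call without wild-type replicate 1 (adjusted p = 0.014). With A6 replicate 1, 2 or 3 left out its adjusted p was 0.0642, 0.0897 or 0.0611, and with the wild-type array of replicate 2 or 3 left out it was 0.0927 or 0.0897.

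GLR3.6 (AT3G51480), the partner of GLR3.3 in wound signals and expressed beside the xylem, had values of -0.25, -0.12 and 0.19 in A6 replicates 1 to 3, against 0.29, -0.11 and 0.11 in wild-type replicates 1 to 3. The ranges of the lines overlapped. The log2 difference of -0.16 did not pass (SE 0.15, adjusted p = 0.616, 95% interval -0.51 to 0.19), and 48.3% of all probe sets had a larger absolute difference. That GLR3.3 fell and GLR3.6 did not pass does not show that their responses differ. Their log2 differences were 0.34 apart, with GLR3.3 the lower (exact permutation p = 0.1, the smallest that 3 against 3 arrays allow).

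Genes beside those of clade 3 were mixed. AT1G42480, near GLR3.3 with 1 gene between, rose by 0.37 log2 units (SE 0.09, adjusted p = 0.0431), opposite to GLR3.3, and lost its call when any 1 array other than wild-type replicate 1 was left out (adjusted p 0.0649 to 0.171). AT1G42700 on the other side, with 4 genes between, had -0.19 (adjusted p = 0.37). Directly beside GLR3.5, AT2G32380 had 0.06 (adjusted p = 0.824). On its other side lies GLR3.7, which did not meet the symbol rule. The nearest measured gene there, AT2G32415 with 2 genes between, had -0.13 (adjusted p = 0.657).

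**Figure D2:**
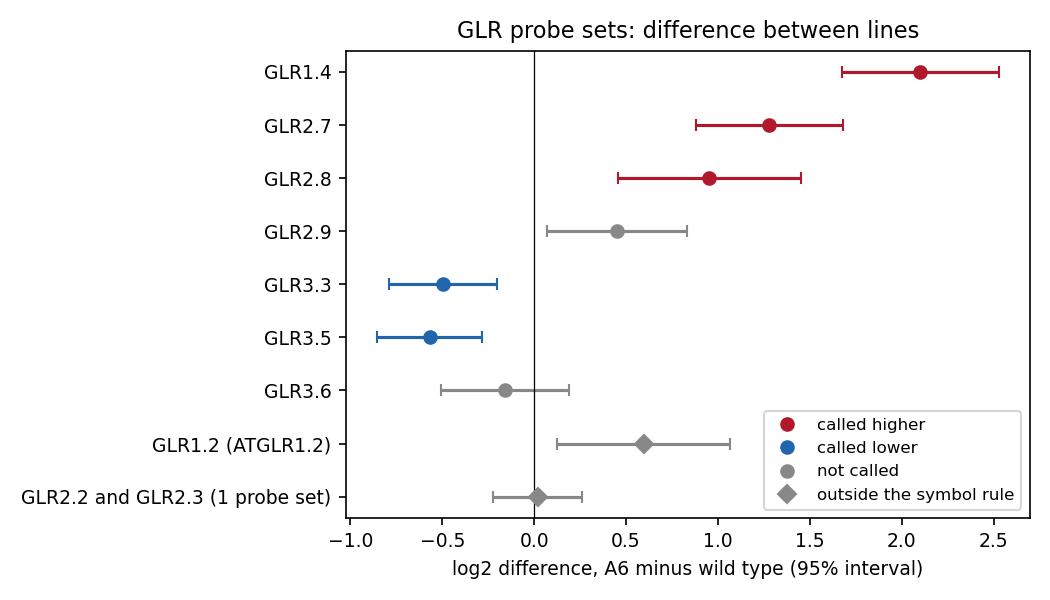
Log2 difference, A6 minus wild type, of the 7 GLR genes and of the other GLR probe sets in the annotation, with the 95% interval from limma. GLR1.4 stands farthest from 0 at 2.101, GLR2.7 and GLR2.8 follow at 1.28 and 0.95, and GLR3.3 and GLR3.5 lie below 0 at -0.50 and -0.57.

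In 5 of the 7 genes the 3 A6 values did not overlap the 3 wild-type values, where 29.0% of all probe sets showed no overlap. All pairs among the 7 genes, 21 in number, were compared by the difference of their log2 differences. In 16 pairs the within-array differences of the lines lay apart, which is the smallest p of an exact permutation test here (0.1, or 0.131 after Benjamini-Hochberg adjustment over the pairs), so no pair could pass. Among the 12 pairs of a clade 1 or clade 2 gene with a clade 3 gene, the largest was GLR1.4 against GLR3.5, at 2.67, and the smallest GLR2.9 against GLR3.6, at 0.61 (exact p = 0.2).

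Other GLR probe sets were in the annotation but outside the symbol rule. GLR1.2, listed there as ATGLR1.2, belongs to clade 1 like GLR1.4. Its values were 0.28, 0.89 and 0.06 in A6 replicates 1 to 3, against -0.33, -0.06 and -0.17 in wild-type replicates 1 to 3. The lines lay apart, A6 replicate 2 was again far above the others, and the log2 difference of 0.60 did not pass (SE 0.20, adjusted p = 0.115). Without A6 replicate 2 the log2 difference of ATGLR1.2 was 0.36 (adjusted p = 0.213), and with the 2 arrays of high hybridization spike-ins as a block it passed (0.60, adjusted p = 0.0496). GLR2.2 and GLR2.3, a neighbouring pair of clade 2, share 1 probe set, with a log2 difference of 0.02 (SE 0.10, adjusted p = 0.945, 95% interval -0.22 to 0.26).

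Genes were taken from 7 lists of broad functional classes, and whether each gene works with GLR channels was not tested. The lists were cyclic nucleotide-gated channels, other calcium channels, cornichon homologues, calcium pumps and exchangers, calcium sensors and kinases, glutamate metabolism, and the wound-jasmonate response. Of their 97 loci only 4 had a probe set of their own under a name, and 5 more genes were found by symbol only, CML43 among them. These 9 genes belong to the cornichon and the calcium sensor list, and the other 5 lists are not analysed here. Of the 9 genes 1 rose, 1 fell and 7 did not pass, so 22.2% were called against 9.77% of all probe sets, and their median log2 difference was 0.04.

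Cornichon proteins guide GLR channels through the secretory pathway. Of the 2 listed loci measured, AT3G12180 had values of -0.26, -0.24 and -0.20 in A6 replicates 1 to 3, against 0.20, 0.50 and 0.56 in wild-type replicates 1 to 3. It fell by 0.65 log2 units (SE 0.12, adjusted p = 0.0137), with the lines apart. AT1G62880 had a log2 difference of 0.04 (adjusted p = 0.916). The call of AT3G12180 ended with A6 replicate 1 or 2 left out (adjusted p = 0.0705 and 0.0552) and with the wild-type array of replicate 2 left out (adjusted p = 0.0583).

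The measured calcium sensors were 7 calmodulin-like (CML) genes, whose proteins bind calcium. CML43 rose, with values of 0.40, 0.36 and 0.14 in A6 replicates 1 to 3, against -0.14, -0.45 and -0.32 in wild-type replicates 1 to 3. Its log2 difference was 0.60 (SE 0.12, adjusted p = 0.0219), and its call ended with A6 replicate 1 or 2 left out (adjusted p = 0.102 and 0.0843) and with the wild-type array of replicate 2 or 3 left out (adjusted p = 0.0814 and 0.0694). None of the remaining 6 genes passed, with 3 higher and 3 lower in A6 and log2 differences from -0.45 to 0.80. Of the 7 genes 5 had an unadjusted p under 0.05, with CML43, CML37 and CML41 higher and CML42 and CML30 lower in A6. The share of all probe sets at that unadjusted limit is not given here. The list median was 0.37.

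A6 replicate 2 stood out in this list as it did for GLR2.8 and GLR1.2. CML37 had values of 0.37, 1.21 and 0.10 in A6 replicates 1 to 3, against -0.34, -0.10 and -0.27 in wild-type replicates 1 to 3. CML38 had 0.06, 1.2001 and -0.19 in A6 replicates 1 to 3, against -0.12, -0.06 and 0.14 in wild-type replicates 1 to 3. CML37 and CML38, known as calcium sensor genes induced by wounding, were singled out here after their values were seen. Without A6 replicate 2 the log2 difference of CML37 was 0.47 against 0.80 with all arrays, and that of CML38 was -0.05 against 0.37. Neither passed with all arrays or without A6 replicate 2 (adjusted p 0.0965 and 0.12 for CML37, 0.569 and 0.899 for CML38). CML37 passed with the high spike-in arrays as a block (adjusted p = 0.0485) or left out (adjusted p = 0.0441).

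**Figure D3:**
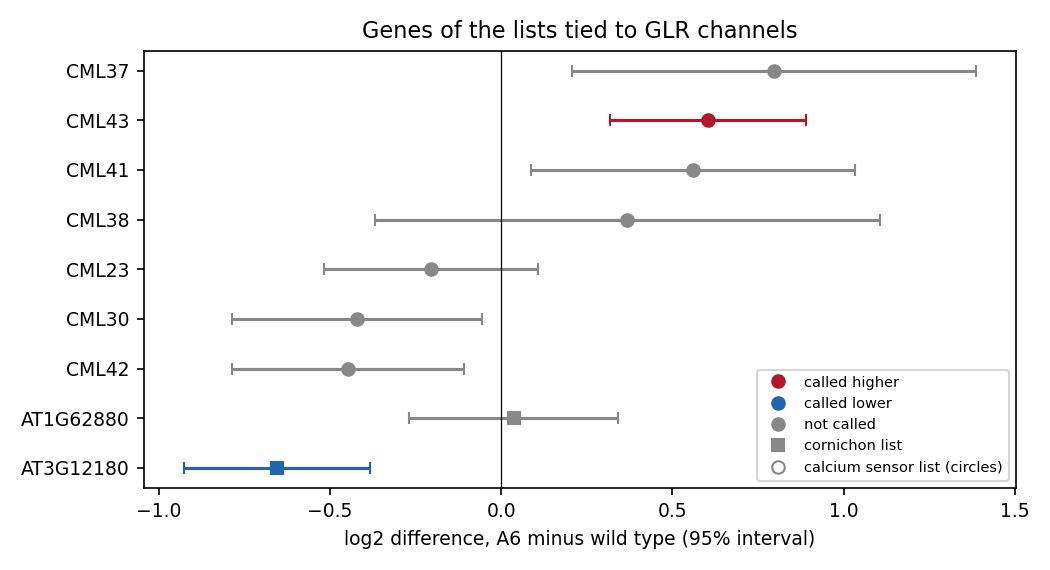
Log2 difference, A6 minus wild type, with its 95% interval for the 9 measured genes of the cornichon (squares) and calcium sensor (circles) lists. CML43 at 0.60 was called higher and AT3G12180 at -0.65 lower, and the other 7 did not pass.

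Markers of cell types were few. Of 23 listed loci 6 had a probe set of their own under a name: 1 of phloem, 3 of guard cells, 2 of root and 0 of xylem. The phloem marker SWEET11 had a log2 difference of -0.23 (adjusted p = 0.397), beside the fall of GLR3.3. Of the guard-cell list, AT1G22690 fell by 0.99 (SE 0.11, adjusted p = 0.00252), beside the fall of GLR3.5, while MUTE had -0.15 and FMA 0.15 (adjusted p = 0.435 and 0.458). The root markers PYK10 and EXPA7 had -0.12 and -0.13. The part of tissue makeup in the GLR results was not tested.

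The arrays also differed in their controls. The mean of 6 pairs of 3' minus 5' probe sets for Arabidopsis actin, GAPDH and ubiquitin, a sign of RNA quality, ran from -0.03 to -0.02 in A6 and from 0.02 to 0.09 in wild type, so it separated the lines. With it as a covariate GLR1.4 had a log2 difference of 2.55 and kept its call (adjusted p = 0.0272), while GLR2.7 (1.23, adjusted p = 0.124), GLR2.8 (0.66, adjusted p = 0.447), GLR3.3 (-0.18, adjusted p = 0.71) and GLR3.5 (-0.78, adjusted p = 0.139) did not pass. Hybridization spike-ins read high on A6 replicate 3 and wild-type replicate 1 (means 0.41 and 0.40, against -0.37 to 0.02 on the other arrays). Without both arrays, a setting chosen after seeing the data, the 5 calls stood and GLR2.9 was also called, at 0.71 (adjusted p = 0.0076). More probe sets were called in that setting, 1662 higher and 1803 lower, against 1143 and 1079 with all arrays.

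**Figure D4:**
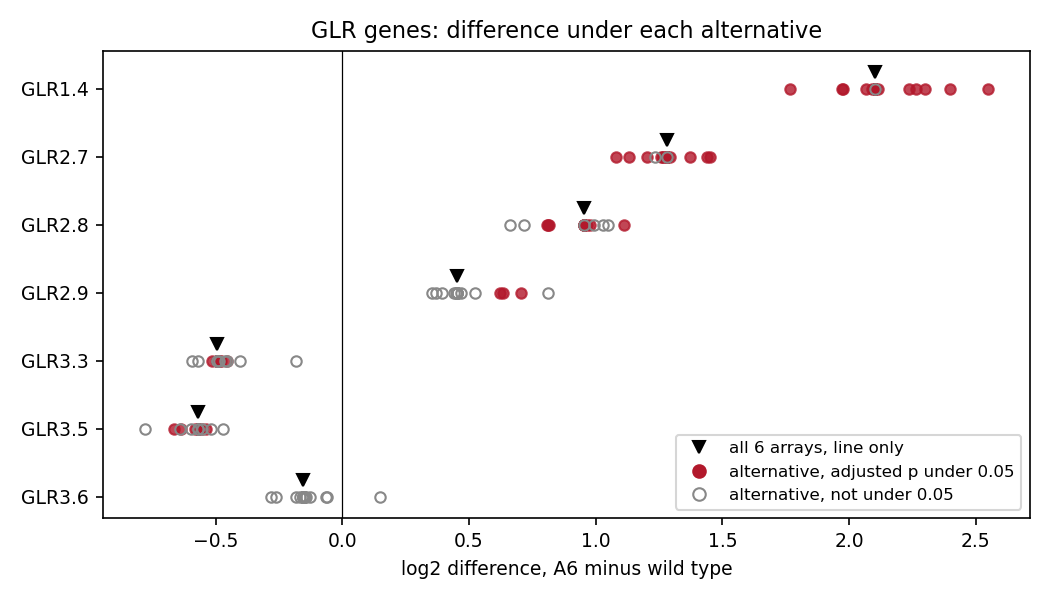
Log2 difference, A6 minus wild type, of each GLR gene with all 6 arrays (black triangles) and under 17 other settings (circles, filled where the adjusted p was under 0.05). GLR1.4 passed in 16 of 17 and GLR2.7 in 15, against 11 for GLR2.8, 9 for GLR3.5, 8 for GLR3.3, 3 for GLR2.9 and 0 for GLR3.6. The settings reuse the same arrays, so these counts are not independent. The limit of a 2-fold difference, which GLR2.8, GLR3.3 and GLR3.5 did not reach, is not among them.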

How the data were processed

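Per the labels' protocols, RNA was isolated on QIAGEN RNeasy columns, and the 3' IVT Express reagents of Affymetrix were used for labelling. The deposited values are RMA output by the submitters' processing notes and are taken here as log2. The log base and the RMA version are not given in the sources used here. Every probe set has a median of 0 on the 6 arrays, so levels and brightness are lost, and no dim probe set could be filtered. The number of arrays limits the precision. Of the probe sets, 13513 paired with 1 gene and 503 with several. A gene is called measured where a probe set was paired with it alone under a name. Other genes may still have a probe set on the array. RefSeq names (TAIR10.1) matched all 7 GLR genes and gave gene order. Lines were compared over 22746 probe sets, with 64 controls left out, by lmFit and eBayes of limma 3.58.1 (R 4.3.3), two-sided, line as the only term, with Benjamini-Hochberg adjustment. The fit was run on simulated data with known changes and independent noise on each array. Those data lack the differences between arrays seen here, so the run checks the code and not the calls. For genes with several probe sets the plainest suffix, then the lowest number was used. Named were all GLR genes, called members of each linked list (up to 4, or the 2 lowest p where none was called) and the nearest measured genes beside called GLR genes. The members and lists were chosen with earlier results of these data known. The labels name no pairing of same-numbered arrays, and none was used in the main fit. Correlations of deviations from line means were -0.13, 0.18 and -0.16 for same-numbered arrays. The largest between the lines was 0.30, for A6 replicate 3 with wild-type replicate 1, the arrays with high spike-ins.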

Additional observations from a re-analysis of the deposited data

How the results depend on the processing

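GLR1.4 and GLR2.7 kept their direction under all 17 settings, and GLR2.8, GLR2.9, GLR3.3 and GLR3.5 did as well, while GLR3.6 had 0.15 with the 3' minus 5' covariate. With single arrays left out, 2 to 4 GLR genes were called higher and 0 to 1 lower, against 3 and 2 with all arrays, and the median log2 difference was 0.35 to 0.63. The lists had 0 to 2 higher and 0 to 2 lower. With no variance moderation 0 GLR genes were called higher and 0 lower (GLR1.4 adjusted p = 0.0572, GLR2.7 adjusted p = 0.0861), and 0 and 0 in the lists. Variance moderation changes the standard errors and the p-values but not the log2 differences, which stayed the same. At an unadjusted p under 0.05 in limma, 6 of the 7 GLR genes passed. The share of all probe sets at that limit is not given here, so the count has no background to stand beside. With the 3' minus 5' covariate 1 GLR gene was called higher and 0 lower, 0 and 0 in the lists, and the median was 0.66. Since the covariate separates the lines, its part and that of the line cannot be told apart. Whether same-numbered arrays were grown or handled together is not given in the labels. With the replicate block 3 GLR genes were called higher and 0 lower (GLR3.3 adjusted p = 0.0843, GLR3.5 adjusted p = 0.0651), and over all probe sets 648 fell against 1079. Array weights gave a GLR median of 0.62, with 2 higher and 2 lower in the lists. Requiring a 2-fold difference left 2 GLR genes higher and 0 lower, and 0 and 0 in the lists. Over all probe sets that limit left 455 higher and 126 lower, against 1143 and 1079 without it. Chosen after seeing the data, leaving out both arrays with high spike-ins gave a GLR median of 0.71 and 3 higher and 2 lower in the lists, and the spike-in block gave 2 higher there. Some differences that had not been called changed sign. With single arrays left out, AT2G29150 ranged from -0.0039 (without A6 replicate 3) to 0.092, AT2G32380 from -0.021 (without wild-type replicate 3; -0.0044 without A6 replicate 3) to 0.14, AT2G32415 from -0.24 to 0.0035 (without wild-type replicate 1), and CML38 from -0.053 (without A6 replicate 2) to 0.64. With the 3' minus 5' covariate AT2G32415 had 0.32, AT3G07530 had 0.12 (-0.54 without the covariate) and AT2G29070 had -0.027. The cause of these changes was not tested. Subtracted array medians, renewed quantile normalization, robust variance moderation, the 1-gene probe sets alone and mean probe sets left the GLR counts at 3 higher and 2 lower or within 1.5 times of them. The count over all probe sets, 1143 higher and 1079 lower, was 465 and 301 without A6 replicate 1, 579 and 414 without A6 replicate 2, 891 and 659 without A6 replicate 3, and, with the wild-type array of replicate 1, 2 or 3 left out, 1599 and 1885, 671 and 432, or 711 and 511, so that the share of probe sets called, 9.77% with all arrays, ran from 3.37% to 15.3%. It was 97 and 132 without moderation, 146 and 144 with the covariate, 2117 and 2574 with array weights, 1766 and 1712 with the spike-in block, and 1662 and 1803 with the 2 high spike-in arrays left out.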
